A study of Homo sapiens with 4 samples.

Results

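Krueppel-like factors are transcription factors with zinc fingers of the C2H2 type at the end of the protein, which bind CACCC and GC-rich boxes in promoters and enhancers. The 10 genes described here are KLF2, KLF3, KLF4, KLF6, KLF7, KLF9, KLF10, KLF11, KLF13 and KLF15, of 20163 protein-coding genes in the GENCODE annotation on hg19 (GRCh37). They were taken as a list of names with no threshold on any value, and the list was drawn up with earlier results of these data known. A peak was a promoter peak of a gene if it overlapped the 1 kb on either side of any of its annotated transcript starts. A distal peak lay within 50 kb of the gene body, outside those windows and outside 1 kb of the start of a protein-coding transcript of any gene. All distances are from the main transcript start, that of the transcript the annotation names canonical, with negative values upstream in the direction of the gene.

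H3K27ac, the acetylation of lysine 27 on histone H3, is found at active promoters and enhancers. It was mapped by ChIP-seq with the antibody ab4729 in 4 established cancer cell lines, with 1 library per line. COLO-205 comes from colon cancer and was grown in RPMI with FBS. DU-145 comes from prostate cancer and was grown in Eagle minimal essential medium with FBS. OVCAR-3 and SKOV-3 come from ovarian cancer and were grown in RPMI 1640 and in McCoy's 5a medium, each with FBS. None of the lines carried a treatment or an engineered allele in the labels, and the study used the mark to follow candidate regulatory mutations in these lines. With no replicates there is no test between lines, and the 95% intervals below are exact Poisson intervals that cover counting error only.

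The SKOV-3 list was much the shortest, with 14001 peaks, against 76093 in OVCAR-3, 75468 in DU-145 and 85576 in COLO-205. The ChIP tags behind them were computed as 22400000, 34200000, 36000000 and 29800000 in the same order. The lowest tag pileup at a listed summit was between 0.351 per 1000000 tags in OVCAR-3 and 0.491 in SKOV-3, and a promoter without a listed peak may hold any signal that the peak caller did not pass. Of the markers that fit each tissue, COLO-205 had a promoter peak at 3 of 6 colon genes (CDX2, VIL1 and LGALS4), of which LGALS4 was also marked in DU-145 and OVCAR-3. Of the prostate genes, TMPRSS2 was marked in DU-145 and in COLO-205 and OVCAR-3, HOXB13 and ACP3 in OVCAR-3 alone and KLK3 in COLO-205 alone. The other genes of the prostate list are not reported here. The ovarian carcinoma genes were marked at 6 of 6 in OVCAR-3 and 2 of 6 in SKOV-3 (PAX8 and SOX17), and also at 4 of 6 in COLO-205 and 3 of 6 in DU-145, so this list did not set the ovarian lines apart. All 4 epithelial genes were marked in COLO-205, DU-145 and OVCAR-3, and 2 of 4, the keratins KRT8 and KRT18, in SKOV-3. None of 4 blood genes was marked in any line, and of 3 endothelial genes only CDH5, in DU-145.

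The family has activators and repressors that read the same boxes. KLF2, KLF4, KLF6 and KLF7 are activators of many of their targets. KLF3 recruits the corepressor CtBP, and KLF9, KLF10, KLF11 and KLF13 bind the corepressor Sin3A. KLF2 is known for endothelial and lymphocyte quiescence and KLF4 for the differentiation of gut and skin epithelium and for reprogramming. KLF9 and KLF15 are induced by glucocorticoids, and KLF10 and KLF11 are early response genes of TGF-beta.

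The promoter sequences of 5 members are shown first, since KLF2, KLF4, KLF9 and KLF15 were not marked in every line and KLF11 stood out in OVCAR-3. Each is the 250 bases before the main start on GRCh37, read 5′ to 3′ on the strand of the gene. Capitals mark the KLF box CACCC, the GC box GGGCGG, the CREB site TGACGTCA, the TATA box TATAAA and the CAAT box CCAAT on either strand, with overlapping matches marked together. KLF2 lies at chr19:16435387-16435636 on the plus strand, KLF4 at chr9:110252051-110252300 on the minus strand, KLF9 at chr9:73029574-73029823 on the minus strand, KLF11 at chr2:10183427-10183676 on the plus strand and KLF15 at chr3:126076252-126076501 on the minus strand. None of these windows holds an annotated exon.
KLF2: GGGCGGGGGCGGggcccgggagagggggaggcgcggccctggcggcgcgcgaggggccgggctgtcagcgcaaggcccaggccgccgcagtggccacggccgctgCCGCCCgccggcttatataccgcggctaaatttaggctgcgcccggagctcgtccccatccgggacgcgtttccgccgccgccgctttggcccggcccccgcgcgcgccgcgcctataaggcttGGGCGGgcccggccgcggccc
KLF4: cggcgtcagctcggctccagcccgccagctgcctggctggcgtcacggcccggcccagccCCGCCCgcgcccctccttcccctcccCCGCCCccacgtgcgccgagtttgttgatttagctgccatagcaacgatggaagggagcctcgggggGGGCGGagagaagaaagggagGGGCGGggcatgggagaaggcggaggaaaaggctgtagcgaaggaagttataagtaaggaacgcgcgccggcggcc
KLF9: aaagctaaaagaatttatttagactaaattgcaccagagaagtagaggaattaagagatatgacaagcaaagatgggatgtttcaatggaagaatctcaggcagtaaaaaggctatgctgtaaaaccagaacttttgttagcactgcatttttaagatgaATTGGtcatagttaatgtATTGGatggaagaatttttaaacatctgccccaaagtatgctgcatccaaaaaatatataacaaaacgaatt
KLF11: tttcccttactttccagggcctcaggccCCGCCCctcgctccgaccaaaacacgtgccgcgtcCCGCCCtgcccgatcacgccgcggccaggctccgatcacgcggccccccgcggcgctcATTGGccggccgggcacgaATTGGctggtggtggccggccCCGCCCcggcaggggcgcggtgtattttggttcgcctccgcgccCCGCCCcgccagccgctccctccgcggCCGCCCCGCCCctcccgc
KLF15: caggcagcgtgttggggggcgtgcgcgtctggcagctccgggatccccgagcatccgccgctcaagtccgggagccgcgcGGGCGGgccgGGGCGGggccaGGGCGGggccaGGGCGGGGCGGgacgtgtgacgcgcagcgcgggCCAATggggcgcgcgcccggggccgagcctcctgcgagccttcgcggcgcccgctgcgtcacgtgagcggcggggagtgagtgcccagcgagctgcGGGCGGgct

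GGGCGG, the box bound by SP and KLF proteins, was found in this window in 8 of the 10 members, against 59.2% of 19862 promoters of protein-coding genes, and CACCC in 4 of 10, against 58.8%. CCAAT was present in 6 of 10 members, against 34.3% of all promoters. TGACGTCA, TGANTCA and TATAAA were found in none of the 10, and they occurred in 2.4%, 4.7% and 9.26% of all promoters. The median GC content was 74.6% in the members and 63.2% in all promoters. KLF9 stood apart, with 32.4% GC, an observed-to-expected CpG ratio of 0.159 against a median of 0.866 in the members, and neither GGGCGG nor CACCC. The KLF15 and KLF11 windows carried 6 GGGCGG matches each, and the KLF2 and KLF4 windows 4 each.

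Promoter acetylation of the 10 members fell into 4 patterns. KLF3, KLF6, KLF7, KLF10, KLF11 and KLF13 had a promoter peak in all 4 lines, which makes 6 of 10 members against 25.2% of all protein-coding genes. KLF4 and KLF9 were marked in COLO-205, DU-145 and OVCAR-3 and not in SKOV-3, a pattern of 13.0% of all genes. KLF2 was marked in COLO-205 only, as were 6.16% of all genes, and KLF15 in COLO-205 and OVCAR-3 only, as were 2.77%. The KLF9 and KLF15 peaks of COLO-205 and OVCAR-3 had −log10 q under 10 and do not pass that stricter threshold. The KLF7 and KLF11 promoter peaks of COLO-205 do not pass it either. At that threshold 4 of 10 members kept a promoter peak in all 4 lines. By line, the mark was present at 10 of 10 members in COLO-205 against 51.1% of all genes, at 8 in DU-145 against 59.8%, at 9 in OVCAR-3 against 60.5% and at 6 in SKOV-3 against 31.6%. When each list was limited to its 14001 peaks of highest −log10 q, the length of the SKOV-3 list, 6 members were marked in SKOV-3 against 31.6% of all genes, 7 in OVCAR-3 against 37.9%, 8 in DU-145 against 37.8% and 4 in COLO-205 (KLF2, KLF3, KLF6 and KLF10) against 21.8%. In the shortened lists KLF9 was marked in DU-145 alone, KLF4 in DU-145 and OVCAR-3, and KLF15 in no line. COLO-205 then went from the most marked members to the fewest. KLF3, KLF6 and KLF10, 3 of 10, were marked in all 4 shortened lists, against 12.4% of all genes.

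The level of the mark is given as the normalised pileup, the number of tag fragments over the summit per 1000000 ChIP tags, at the promoter peak with the highest −log10 q. Over all genes with a promoter peak, the median of this level was 1.74 in SKOV-3, 2.46 in OVCAR-3, 1.86 in DU-145 and 1.41 in COLO-205. The medians over the marked members were 2.21, 4.18, 2.54 and 1.43 in the same order. OVCAR-3 gave the highest value for 7 of the 10 members, COLO-205 for 2 and DU-145 for 1, but this order depended on the scale. By the percentile of the −log10 q in its own list, OVCAR-3 was highest for 1 member, COLO-205 for 5 and DU-145 for 4. When the pileup was divided by the median of all marked genes in the line, a scale added after the data were seen, the counts were 4 for OVCAR-3, 4 for COLO-205 and 2 for DU-145. KLF9 was highest in DU-145 and KLF11 in OVCAR-3 on each of the 5 scales tried, and KLF2 had a promoter peak in COLO-205 alone.

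**Figure D1:**
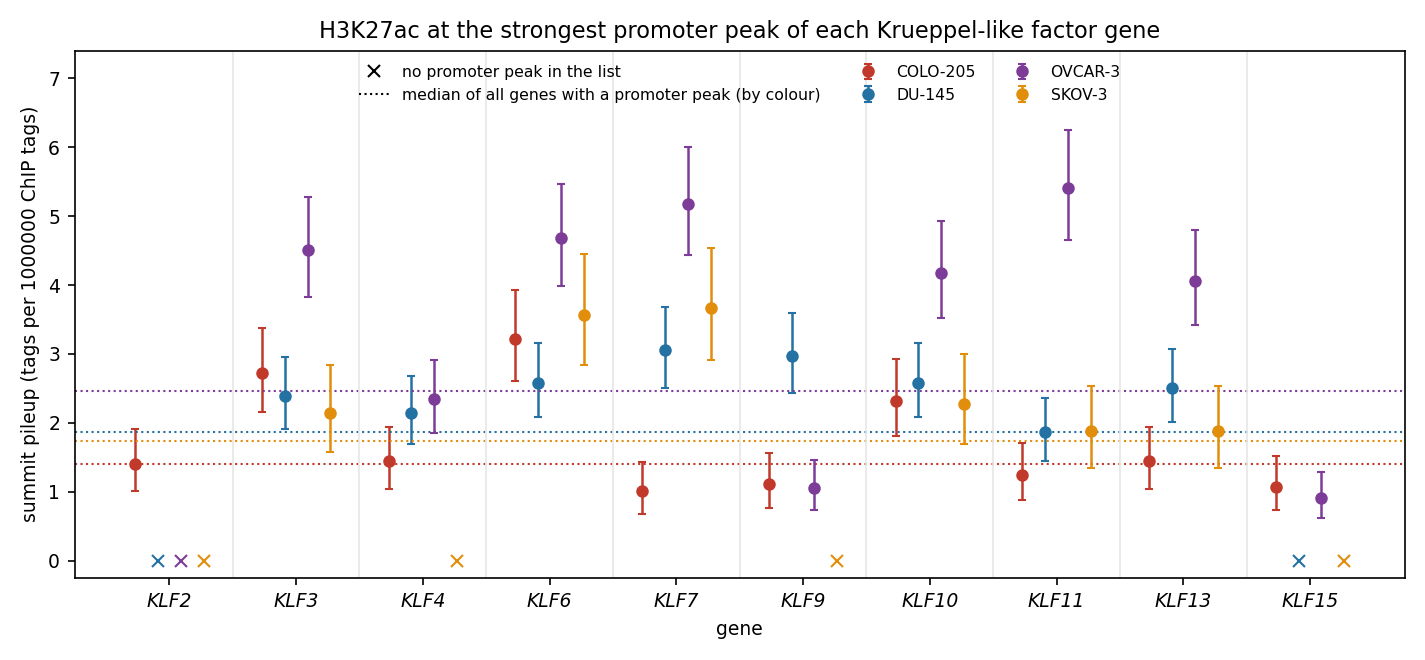
Summit pileup per 1000000 ChIP tags at the promoter peak with the highest −log10 q of each gene (vertical axis) for the 10 genes (horizontal axis), with 1 point per library coloured by line, bars for exact 95% Poisson intervals, crosses for genes with no promoter peak in that list and dotted lines for the median of all marked genes in the line. OVCAR-3 reached 5.41 at KLF11, and KLF9 was highest in DU-145 at 2.97.

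Among the activators, KLF6, a widely expressed early response gene, had at least 2 promoter peaks in every line. Its normalised pileup was 3.22 (95% interval 2.61 to 3.93) in COLO-205, 2.58 (2.09 to 3.16) in DU-145, 4.68 (3.98 to 5.46) in OVCAR-3 and 3.57 (2.83 to 4.44) in SKOV-3. On this scale OVCAR-3 was highest, with an interval that overlapped that of SKOV-3 and not that of DU-145, while COLO-205 was highest by list percentile and by pileup over the median of marked genes, and DU-145 by bases covered. Outside DU-145 the strongest KLF6 summit lay between −554 and −580 bp from the main start, and a second peak had its summit between 213 and 402 bp. DU-145 had both peaks at similar strength, with pileups of 2.67 upstream and 2.58 downstream, and had 6 promoter peaks in all.

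KLF7, which is widely expressed and known from neurons and fat cells, gave 1.01 (0.679 to 1.44) in COLO-205, 3.06 (2.51 to 3.68) in DU-145, 5.18 (4.44 to 6.0) in OVCAR-3 and 3.66 (2.91 to 4.54) in SKOV-3. COLO-205 was the lowest, with an interval clear of the other 3 lines, and the highest line was OVCAR-3 here and DU-145 by list percentile and by bases covered. It held a single peak of 272 bp whose −log10 q of 7.37 stood at the 37.2 percentile of its list, while in the other lines the KLF7 peak stood at the 98.8 percentile or above. The 4 summits fell between −600 and −660 bp from the main start.

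KLF4 gave 1.44 (1.04 to 1.94) in COLO-205, 2.14 (1.69 to 2.67) in DU-145 and 2.34 (1.85 to 2.91) in OVCAR-3, the intervals overlapped across these lines, and DU-145 was highest on the 3 scales other than pileup and fold enrichment. In SKOV-3 the nearest peak was 204480 bp from a KLF4 transcript start. The COLO-205 promoter held 4 peaks, and its level stood at the 50.1 percentile of all marked genes of that list. DU-145 and OVCAR-3 had their strongest summits at −371 and −381 bp from the start, and COLO-205 had it at −563 bp.

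KLF2 had 2 promoter peaks in COLO-205, both downstream of the start, with summits at 258 and 794 bp. The stronger reached 1.41 (1.02 to 1.91), with 4.89-fold enrichment over the local background and a −log10 q of 14.7. This level equalled the median of all marked genes in that list, and its −log10 q stood at the 85.3 percentile of all COLO-205 peaks. The peak nearest to a KLF2 transcript start was 126371 bp away in SKOV-3, 119914 bp in OVCAR-3 and 30884 bp in DU-145.

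The repressor KLF3 gave 2.72 (2.16 to 3.38) in COLO-205, 2.39 (1.91 to 2.95) in DU-145, 4.50 (3.82 to 5.27) in OVCAR-3 and 2.14 (1.58 to 2.84) in SKOV-3. On this scale OVCAR-3 was clear of the other lines and those 3 overlapped, while COLO-205 was highest by list percentile and by pileup over the median of marked genes, and DU-145 by bases covered. The main start of KLF3 lay inside a peak in all 4 lines, and a single peak of 2382 bp in OVCAR-3 and of 2187 bp in DU-145 covered it. Peaks covered 83.4% to 100% of the KLF3 promoter window over the lines.

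KLF10, a TGF-beta early response gene, gave 2.32 (1.80 to 2.93) in COLO-205, 2.58 (2.09 to 3.16) in DU-145, 4.18 (3.52 to 4.93) in OVCAR-3 and 2.28 (1.70 to 2.99) in SKOV-3. OVCAR-3 stood clear of 3 overlapping lines, and COLO-205 was highest by list percentile. The KLF10 start itself lay in no peak: the gap between the peaks on either side was 217 bp in OVCAR-3, 267 bp in DU-145 and 1089 bp in COLO-205, and SKOV-3 had a single peak downstream, with its summit at 1129 bp.

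KLF11, its close relative, was the member with the highest value of any line. Its normalised pileup was 1.24 (0.874 to 1.71) in COLO-205, 1.86 (1.44 to 2.36) in DU-145, 5.41 (4.66 to 6.25) in OVCAR-3 and 1.88 (1.35 to 2.53) in SKOV-3. OVCAR-3 lay above the other lines, whose intervals overlapped. The −log10 q of the OVCAR-3 peak was 158, with a fold enrichment of 17.1 and a width of 1572 bp, against a width of 296 bp in SKOV-3. In all 4 lines the strongest summit fell between 168 and 206 bp downstream of the start.

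KLF13, known as an activator of RANTES in T cells, gave 1.44 (1.04 to 1.94) in COLO-205, 2.5 (2.01 to 3.07) in DU-145, 4.06 (3.42 to 4.80) in OVCAR-3 and 1.88 (1.35 to 2.53) in SKOV-3. OVCAR-3 was clear of DU-145, which was highest by list percentile, and the SKOV-3 interval overlapped those of COLO-205 and DU-145. Every line had 1 peak with its summit between −762 and −784 bp from the start, and other peaks beyond the start. The upstream peak had the higher −log10 q in OVCAR-3 and SKOV-3, and the downstream peak in COLO-205 and DU-145.

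KLF9 was the only member whose own highest value came from DU-145, at 2.97 (2.44 to 3.59), against 1.11 (0.762 to 1.56) in COLO-205 and 1.05 (0.737 to 1.46) in OVCAR-3. The DU-145 interval was clear of both, which overlapped, and its 2319 bp peak had a −log10 q of 61.6 against 8.54 and 9.39. In SKOV-3 the nearest peak was 155245 bp away. The annotated start lay in no peak, and the summits were 943, 1025 and 879 bp downstream of it in DU-145, COLO-205 and OVCAR-3. The 300 bases around those summits had a GC content of 74.0%, 73.0% and 68.7%, while the 250 bases before the annotated start, printed above, had 32.4%. In a window of 500 bp on either side of the start KLF9 was marked in DU-145 and in neither COLO-205 nor OVCAR-3.

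KLF15, the other glucocorticoid-induced member, had weak promoter marks, with the lowest value of the 9 marked members in OVCAR-3. It gave 1.07 (0.734 to 1.52) in COLO-205 and 0.906 (0.616 to 1.29) in OVCAR-3, with overlapping intervals and −log10 q values of 7.90 and 6.99, and OVCAR-3 was the higher by bases covered. Those peaks stood at the 27.5 and 6.62 percentiles of the pileups of all marked genes in the 2 lists. The nearest peak was 117497 bp away in DU-145 and 117766 bp in SKOV-3.

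**Figure D2:**
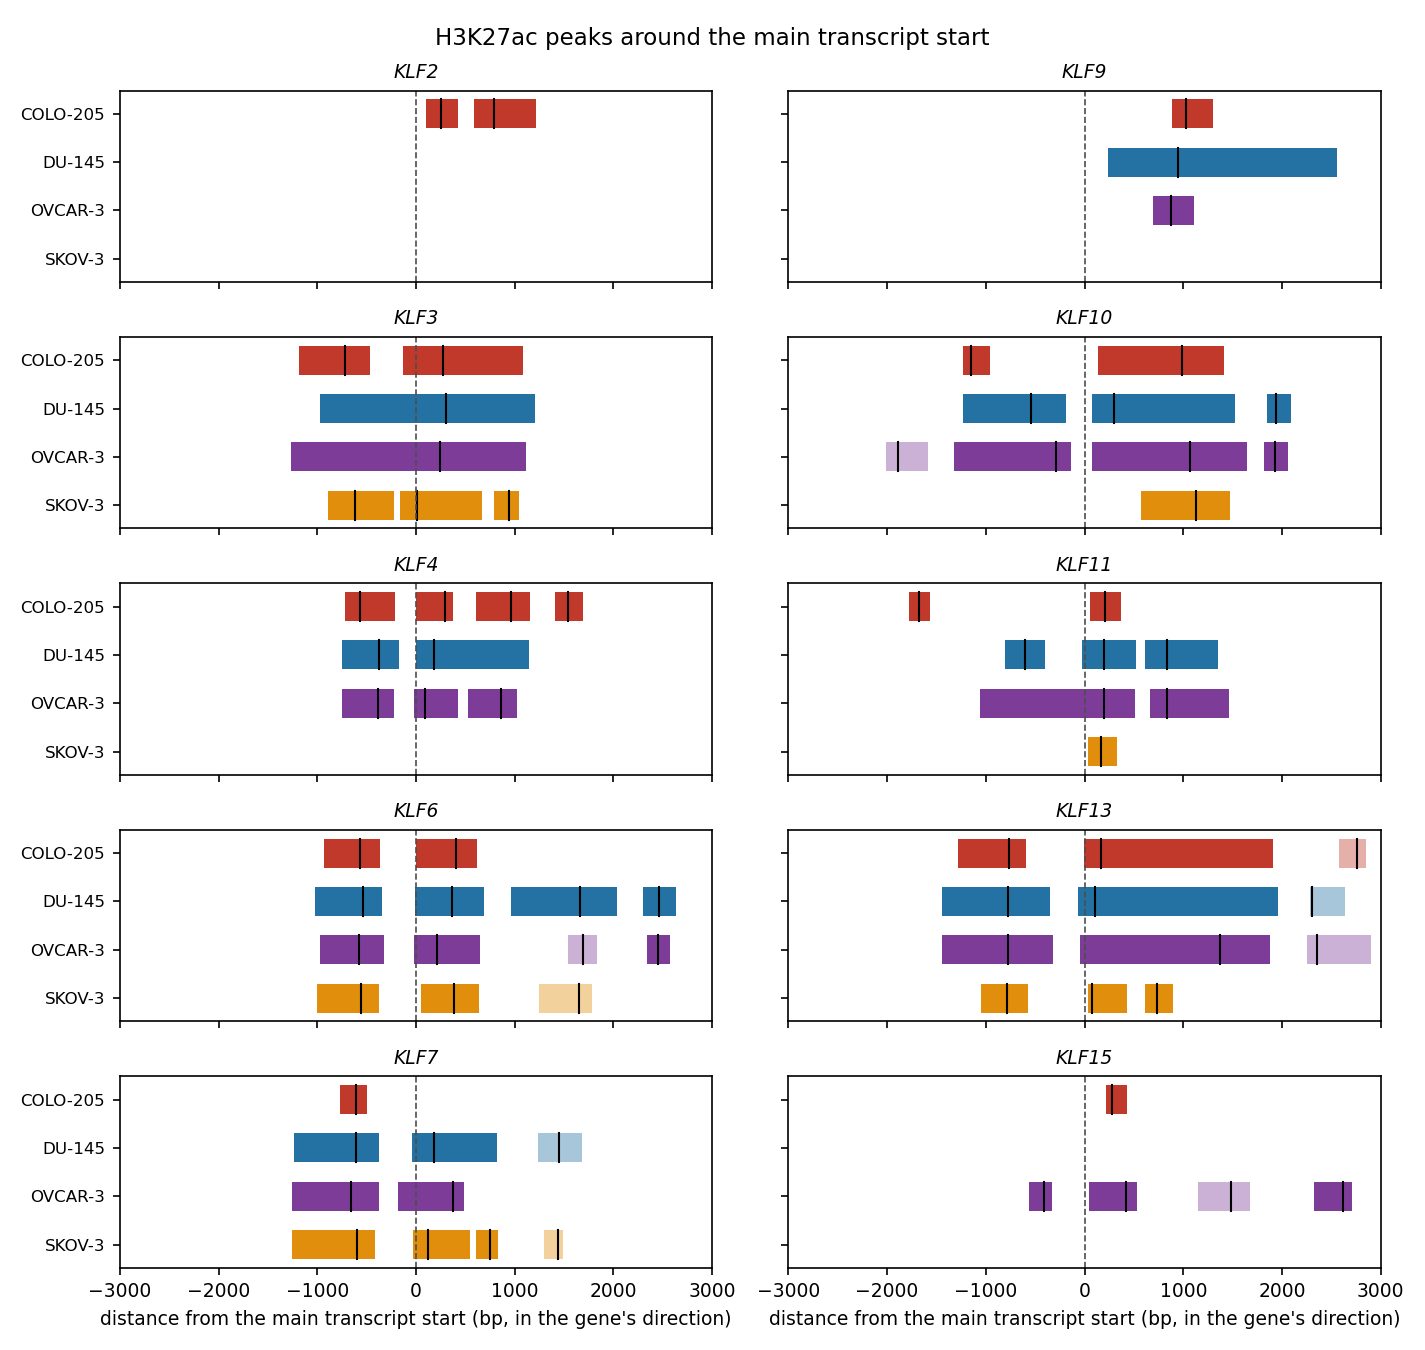
H3K27ac peaks within 3000 bp of the main transcript start (dashed line, horizontal axis in bp in the direction of the gene) in the 4 lines (rows) for the 10 genes; bars are peaks, black ticks their summits, and pale bars peaks outside the 1 kb window of any start of the gene. The KLF9 peaks all lie to the right of the start, with summits from 879 to 1025 bp, and the KLF11 summits nearest the start fall between 168 and 206 bp in all 4 lines.

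Distal peaks were counted next. A distal peak within 50 kb was present at 9 of 10 members in COLO-205 against 74.2% of all protein-coding genes, at 9 in DU-145 against 64.8%, at 7 in OVCAR-3 against 60.7% and at 3 in SKOV-3 against 22.9%. In all, 6 distal peaks lay near the members in SKOV-3, 59 in OVCAR-3, 55 in DU-145 and 99 in COLO-205. With 14001 peaks in every list these counts were 6, 5, 9 and 11 in the same order, so the gap between lines shrank and SKOV-3 passed OVCAR-3. In each shortened list 3 of 10 members had a distal peak, against 22.9%, 19.8%, 22% and 16.8% of all genes. In the full lists, the median number per member was 0, 3, 3 and 7 in the same order, and per gene over all protein-coding genes it was 0, 1, 2 and 2. The means over members were 0.6, 5.9, 5.5 and 9.9, against 0.625, 5.37, 5.69 and 5.81 over all genes. Distal peaks near the members were narrower than their promoter peaks, with median widths of 263, 296, 381 and 289 bp against 576, 657.5, 856 and 464.5 bp.

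**Figure D3:**
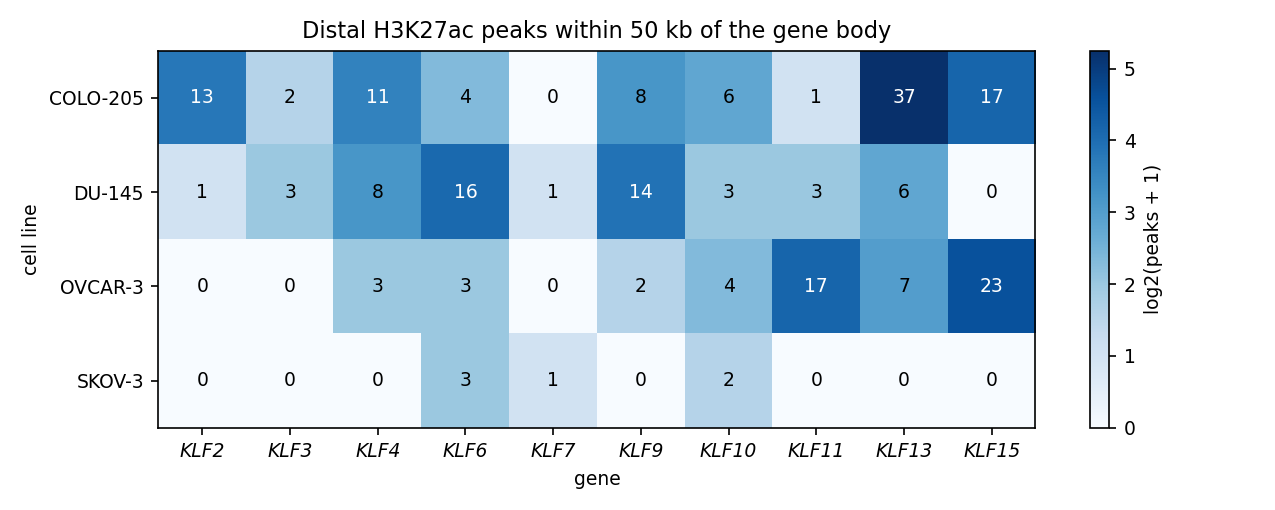
Number of distal H3K27ac peaks within 50 kb of the gene body (printed in each cell, shaded by log2 of the count plus 1) for the 10 genes (columns) in the 4 lines (rows, 1 library each). The highest count is 37, at KLF13 in COLO-205, and the SKOV-3 row holds peaks at KLF6, KLF7 and KLF10 only.

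The members differed widely, and several had most of their distal peaks in 1 line. KLF13 had 37 distal peaks in COLO-205, at the 97.9 percentile of all genes, against 0 in SKOV-3, 7 in OVCAR-3 and 6 in DU-145. With −log10 q of at least 10 these became 8 in COLO-205, 0 in SKOV-3, 4 in OVCAR-3 and 2 in DU-145. Of the 37, 18 lay in the gene body, 8 upstream and 11 downstream. The KLF13 body is 108.8 kb long, and KLF7, with a body of 99.7 kb, had 1 each in DU-145 and SKOV-3 and 0 in the other two lines. Genes of chromosome 15 had a median of 7 distal peaks in COLO-205, and the part of this in the KLF13 count was not tested.

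KLF11 had 17 distal peaks in OVCAR-3, 8 of them upstream and 9 downstream, against 1 in COLO-205, 3 in DU-145 and 0 in SKOV-3. OVCAR-3 was also the line with its highest promoter pileup. At −log10 q of at least 10 KLF11 kept 9 distal peaks there and 1 in DU-145. With 14001 peaks in every list KLF11 kept 2 in OVCAR-3 and 0 in the other lines. Peaks covered 8.37% of the 1 Mb around KLF11 in DU-145, against 3.42% in OVCAR-3. KLF6 had 16 in DU-145, against 4, 3 and 3 in COLO-205, OVCAR-3 and SKOV-3. KLF9 had 14 in DU-145, the line of its highest promoter pileup, 8 in COLO-205, 2 in OVCAR-3 and 0 in SKOV-3. At −log10 q of at least 10 the DU-145 count was 10 at KLF6, against 1, 2 and 3 in COLO-205, OVCAR-3 and SKOV-3, and 4 at KLF9, against 3 in COLO-205 and 2 in OVCAR-3. With 14001 peaks in every list, KLF6 had 6 in DU-145, 3 in SKOV-3, 1 in OVCAR-3 and 0 in COLO-205, while KLF9 had 2 each in DU-145 and OVCAR-3 and 0 in the others. Genes of chromosome 10, which holds KLF6, had a median of 5 distal peaks in DU-145 and those of chromosome 9, which holds KLF9 and KLF4, a median of 6 there and in COLO-205, against 2 over all genes in both lists. The part of these chromosome levels in the counts was not tested. For KLF6 the line with most distal peaks, DU-145, had the lowest normalised pileup at the promoter. Its interval there overlapped those of COLO-205 and SKOV-3, and DU-145 had the most promoter bases under peaks.

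KLF2 had 13 distal peaks in COLO-205, all of them downstream of the gene and 9 with −log10 q of at least 10, 1 in DU-145 and 0 in OVCAR-3 and SKOV-3. KLF15 had 17 in COLO-205 and 23 in OVCAR-3, the lines in which its promoter was marked, and 0 in DU-145 and SKOV-3. Most were weak: at −log10 q of at least 10 there remained 1 in COLO-205 and 3 in OVCAR-3, and the promoter was then unmarked in both. Its 33 distal regions, formed by joining overlapping peaks of the lists, held 7 that both lines shared. Peaks covered 3.74% of the 1 Mb around KLF15 in COLO-205 and 5.75% in OVCAR-3, against 0.507% in DU-145 and 0.113% in SKOV-3. Genes of chromosome 3 had a median of 6 distal peaks in OVCAR-3 and of 1 in COLO-205, and the part of the chromosome in the KLF15 count was not tested. The neighbouring gene CFAP100 had promoter peaks in the same pair of lines, 5 in each, and none in DU-145 and SKOV-3.

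KLF4 had 0 distal peaks in SKOV-3, 3 in OVCAR-3, 8 in DU-145 and 11 in COLO-205, of which 0, 1, 2 and 1 had −log10 q of at least 10. KLF10 had 2 in SKOV-3, 4 in OVCAR-3, 3 in DU-145 and 6 in COLO-205, of which 1, 2, 1 and 1 had −log10 q of at least 10. With 14001 peaks in every list, KLF10 kept 2 in SKOV-3 and 0 in the other lines, and KLF4 kept 0 in every line. KLF3 had 2 in COLO-205 and 3 in DU-145, all within its body, and 0 in the ovarian lines. Of these, 0 in COLO-205 and 1 in DU-145 had −log10 q of at least 10. With 14001 peaks in every list KLF3 kept 0 in every line.

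**Figure D4:**
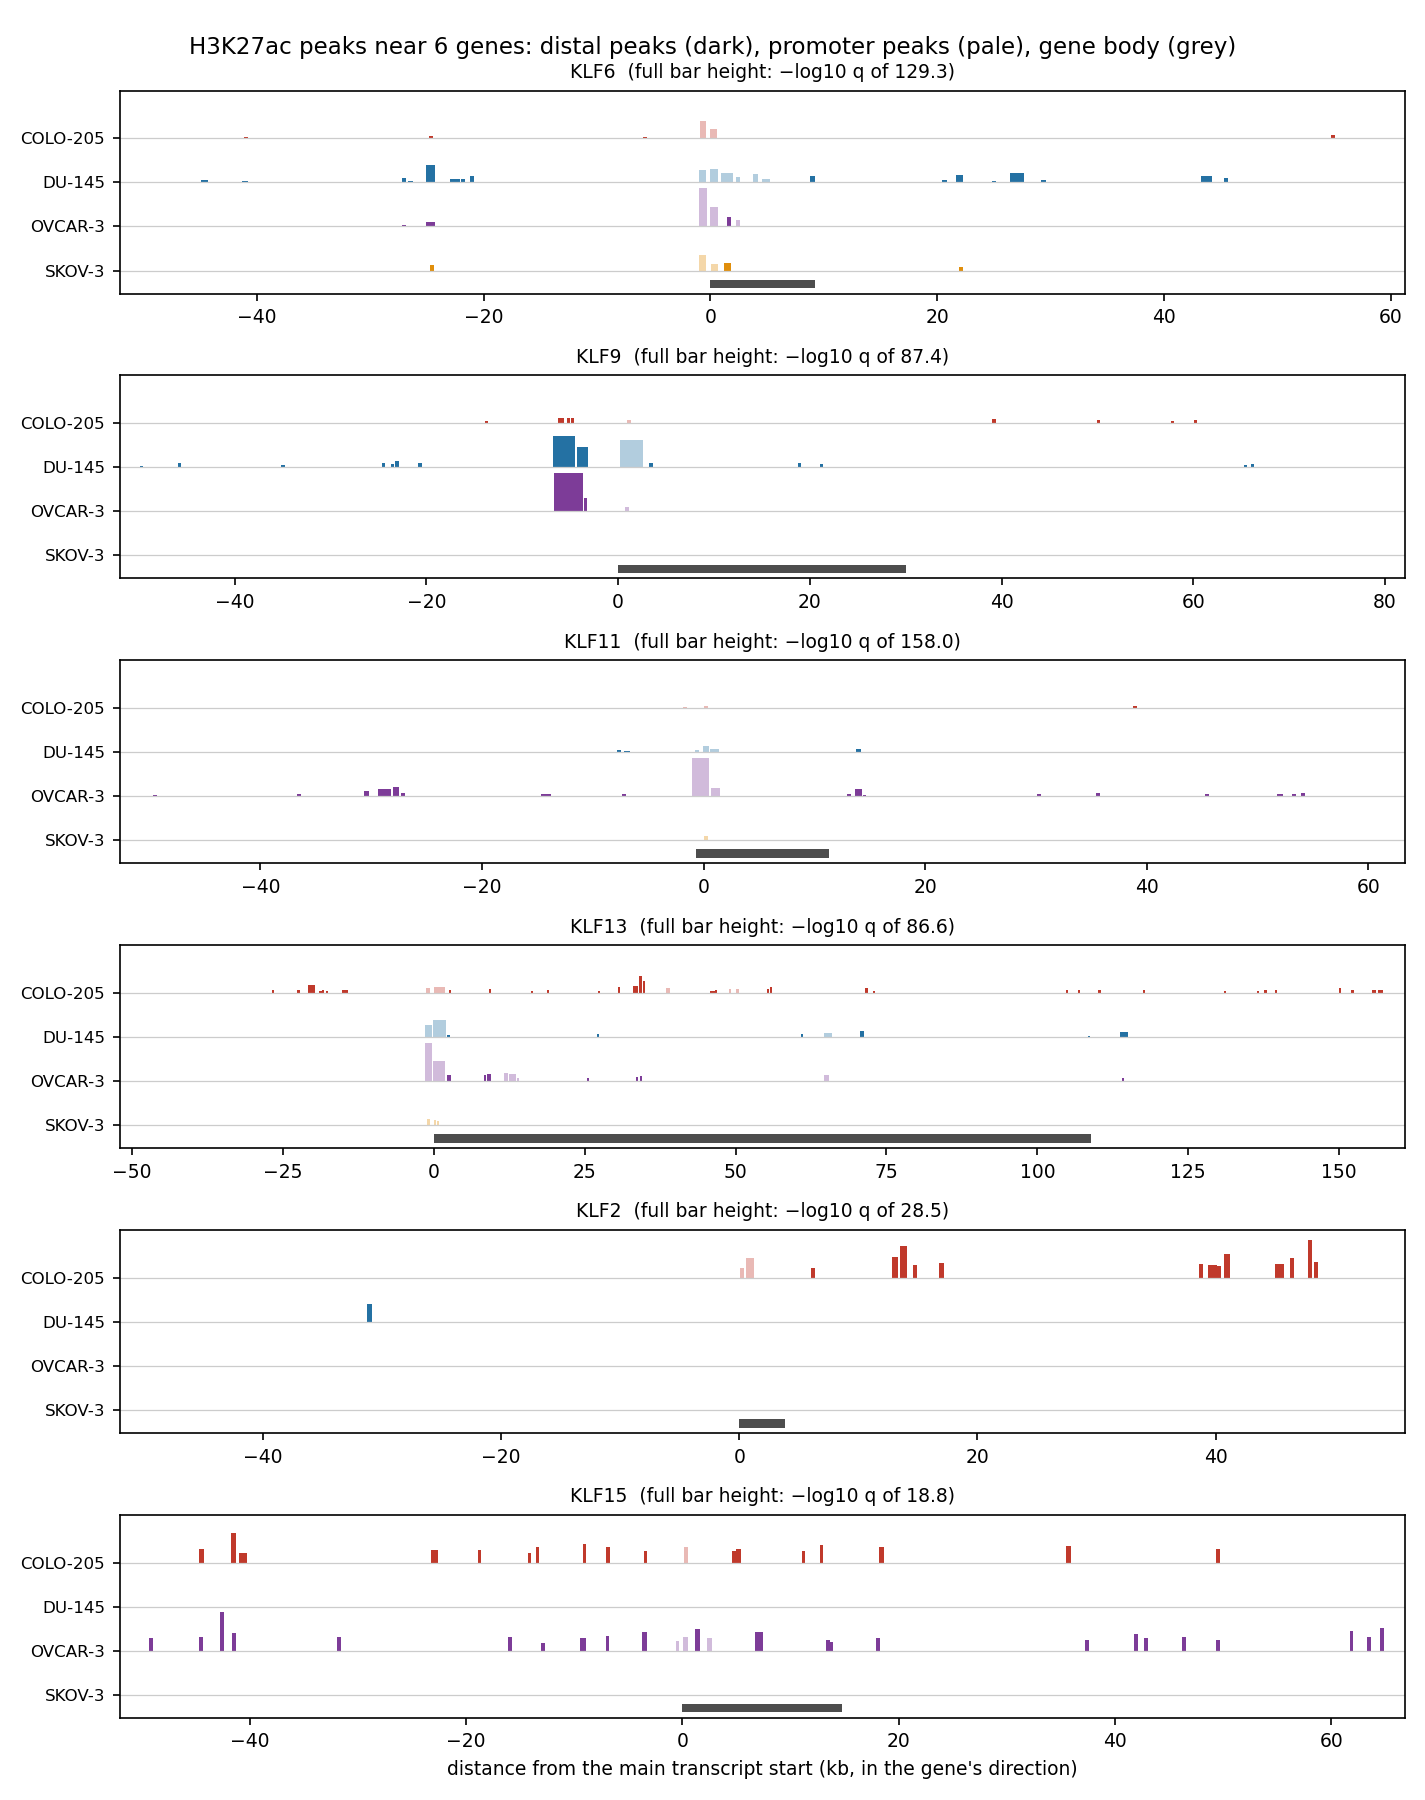
H3K27ac peaks within 50 kb of 6 gene bodies, by distance from the main transcript start in kb in the direction of the gene (horizontal axis), in 4 rows by line; bar height is −log10 q scaled to the highest peak shown for that gene, dark bars are distal peaks, pale bars promoter peaks and the grey bar the gene body. KLF11 has its distal peaks mainly in OVCAR-3 (17 of them), KLF13 in COLO-205 (37), KLF6 in DU-145 (16), and KLF15 in COLO-205 (17) and OVCAR-3 (23).

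Joined over the lists, the distal peaks made 182 regions, of which 154 were marked in 1 line, 24 in 2, 3 in 3 and 1 in all 4. Of the members' distal peaks, 66.7% in SKOV-3 (4 of 6), 37.3% in OVCAR-3, 29.1% in DU-145 and 23.2% in COLO-205 overlapped any peak of another line. Over all distal peaks of the lists the shares were 66.7%, 28.9%, 25.9% and 16.1% in that order. The sequence of the 201 bases around a summit is printed for 4 regions: 2 of those marked in 3 lines, and the regions with the highest −log10 q at KLF2 and KLF11. They are given on the plus strand of GRCh37, with the KLF box CACCC, the AP-1 site TGANTCA and the CREB site TGACGTCA in capitals on either strand.
KLF9, chr9:73034667-73034867: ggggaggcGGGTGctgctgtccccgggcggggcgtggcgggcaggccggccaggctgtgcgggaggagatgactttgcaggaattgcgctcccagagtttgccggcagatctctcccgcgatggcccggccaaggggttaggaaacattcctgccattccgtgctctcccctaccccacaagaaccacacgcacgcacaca
KLF4, chr9:110228108-110228308: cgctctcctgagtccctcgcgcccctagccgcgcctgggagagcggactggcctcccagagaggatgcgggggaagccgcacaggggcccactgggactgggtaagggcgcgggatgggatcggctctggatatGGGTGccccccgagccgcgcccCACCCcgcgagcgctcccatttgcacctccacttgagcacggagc
KLF11, chr2:10155863-10156063: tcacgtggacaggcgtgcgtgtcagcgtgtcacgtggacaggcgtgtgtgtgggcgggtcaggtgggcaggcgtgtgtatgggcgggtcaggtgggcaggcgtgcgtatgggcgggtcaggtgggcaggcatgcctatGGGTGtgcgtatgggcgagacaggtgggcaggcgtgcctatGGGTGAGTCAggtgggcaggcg
KLF2, chr19:16483445-16483645: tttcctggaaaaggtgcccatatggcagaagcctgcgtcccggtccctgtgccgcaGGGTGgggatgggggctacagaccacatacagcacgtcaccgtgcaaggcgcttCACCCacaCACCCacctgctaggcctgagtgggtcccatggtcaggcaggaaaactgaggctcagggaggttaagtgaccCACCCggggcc

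The region in all 4 lines lay upstream of KLF6, at −24.9 kb from its main start, in an exon of the long non-coding RNA ENSG00000287175. Its −log10 q was 58.1 in DU-145, 17.3 in SKOV-3, 16.6 in OVCAR-3 and 8.95 in COLO-205. The normalised pileup was 2.11, 1.21, 0.906 and 0.705 in that order. DU-145 was highest here, with an interval (1.66 to 2.64) that overlapped that of SKOV-3 (0.794 to 1.75). At the KLF6 promoter DU-145 was lowest, with an interval that overlapped those of COLO-205 and SKOV-3. This region, the KLF9 region and the KLF4 region each touch a start of a non-coding transcript, which the definition of a distal peak allowed. Within the KLF6 body, 1.69 kb from the main start, OVCAR-3 and SKOV-3 shared a distal peak with −log10 q of 33.0 and 25.5, and in DU-145 a peak that reached into a promoter window had its summit 1663 bp from the start.

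The KLF9 region lay upstream of the annotated start, with its strongest summit at −5.19 kb, in an exon of the long non-coding RNA ENSG00000289159. Its −log10 q was 12.8 in COLO-205, 70.4 in DU-145 and 87.4 in OVCAR-3, and SKOV-3 had no peak there. The normalised pileup was 1.44, 3.31 and 3.71 in that order. In OVCAR-3 it was 3.71 at this region and 1.05 at the KLF9 promoter peak, with intervals (3.10 to 4.42 and 0.737 to 1.46) that did not overlap, while in DU-145 the 2 values were 3.31 and 2.97 and the intervals (2.74 to 3.96 and 2.44 to 3.59) overlapped. The OVCAR-3 peak was 2953 bp wide and the DU-145 peak 2347 bp.

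The KLF4 region lay 23.8 kb downstream of the main start, in the non-coding gene LINC01509, with −log10 q of 4.80 in COLO-205, 15.4 in DU-145 and 8.57 in OVCAR-3. The third region of 3 lines lay in the KLF13 body, 2.36 kb from the start, with −log10 q of 7.64 in COLO-205, 4.91 in DU-145 and 12.9 in OVCAR-3. The KLF4 window holds 2 CACCC matches.

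The strongest KLF11 region lay upstream at −27.7 kb and was marked in OVCAR-3 alone, with a −log10 q of 39.4 and a normalised pileup of 2.31 (1.83 to 2.88). A wider peak of 1180 bp lay beside it at −28.5 kb, with a −log10 q of 30.6. The printed window is rich in short repeats and holds 1 TGANTCA, which overlaps a CACCC match on the other strand. The sequences around the summits at −28.5 and −30.4 kb, also marked in OVCAR-3 alone, hold similar repeats. Fold enrichment was 3.79 at −30.4 kb, 6.05 at −28.5 kb and 7.09 at −27.7 kb. The peaks at −27.7 and −28.5 kb had the highest −log10 q of the KLF11 distal peaks. They are the 2 that KLF11 kept in the shortened OVCAR-3 list. The part of the repeats in these peaks was not tested. The neighbouring genes GRHL1 and CYS1 were marked at their own promoters in OVCAR-3 and DU-145, and GRHL1 in COLO-205 too.

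At KLF13 the strongest distal region lay in the gene body, 34.2 kb from the start, outside its exons. Its −log10 q was 38.0 in COLO-205 and 11.6 in OVCAR-3. The COLO-205 normalised pileup was 2.48 (1.95 to 3.12), against the 1.44 (1.04 to 1.94) of the KLF13 promoter peak in the same list.

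At KLF2 the strongest distal region lay 47.9 kb downstream, within the gene EPS15L1 and outside its exons. It was marked in COLO-205 alone, with a −log10 q of 28.5 and a normalised pileup of 1.64 (1.22 to 2.17), against 1.41 (1.02 to 1.91) at the KLF2 promoter. A second region 13.7 kb downstream, outside annotated genes and chosen after its value was seen, reached 2.11 (1.62 to 2.70) with a −log10 q of 23.9. The EPS15L1 promoter was marked in COLO-205, DU-145 and OVCAR-3, so the KLF2 pattern was not that of its neighbour. The KLF2 window holds 4 CACCC matches.

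The strongest SKOV-3 distal region of KLF10 lay 54.1 kb from its start and beyond its end, with a −log10 q of 22.2 and a normalised pileup of 1.96 (1.43 to 2.64), and no other list held a peak there. The DU-145 distal peak at KLF7 lay in the gene, 1447 bp from the main start, with a −log10 q of 17.2. The highest KLF15 value was 18.8, in OVCAR-3, at −42.5 kb from the start.

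CACCC, the core box of the family, was present in the 300 bases around 66.7% of the members' distal summits in SKOV-3, 71.2% in OVCAR-3, 74.5% in DU-145 and 69.7% in COLO-205. Over all distal summits the shares were 68.6%, 67.1%, 64.1% and 68.9% in that order. TGANTCA was found in 0 of 6, 6 of 59, 2 of 55 and 5 of 99 member windows, against 7.0%, 7.20%, 7.77% and 4.88% of all. A match of these letters is a description and not a bound site.

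Of the 16 other KLF and SP genes, 6 had a promoter peak in SKOV-3, 9 in OVCAR-3, 10 in DU-145 and 9 in COLO-205. The shares of all protein-coding genes were 31.6%, 60.5%, 59.8% and 51.1% in that order, so these counts lay near them. Those marked in all 4 lines were 6, against 25.2% of all genes: KLF5, KLF12, KLF16, SP1, SP2 and SP3. KLF1, the erythroid member, KLF14, KLF17 and SP8 were marked in none. Of 13 cofactor genes, 9 were marked in SKOV-3, against 31.6% of all genes, and 10 in COLO-205, against 51.1%. All 13 were marked in OVCAR-3 and in DU-145, against 60.5% and 59.8%. The corepressor genes CTBP1, CTBP2 and SIN3A and the acetyltransferase genes EP300 and CREBBP were among the 9 marked in all 4 lines. The share of all genes so marked was 25.2%. SIN3B was marked in DU-145 and OVCAR-3 only.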

How the data were processed

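H3K27ac ChIP-seq peak lists of 4 cell lines were used, 1 library each. The authors mapped reads to hg19 with Bowtie2 2.1.0 and called narrow peaks per library with MACS2 2.1.0.20150603 at a q-value of 0.001. Each deposited peak has a score (10 times the −log10 q), a fold enrichment over the local background with a pseudocount of 1, a −log10 p-value, a −log10 q-value and a summit offset, computed within its library. Merging of peaks less than 350 bp apart is described, but the lists hold closer neighbours and were used as deposited.

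Genes came from GENCODE release 44 on GRCh37, whose coordinates are those of hg19, and sequences from that genome. The whole-number pileup at each summit was recovered from the fold enrichment and the −log10 p-value (within 0.001), for 100% of peaks in every list, and the recovery was checked beforehand on made-up peaks with known pileups. Dividing by the tags of a library, which the lowest local background times 2700000000 genome positions over the smallest width gives, made the normalised pileup. Overlap was 1 bp or more. Motifs were counted on both strands. All 10 members are named. Distal regions were named if marked in all 4 lines or if strongest or widest for a member in a line; the KLF4 and KLF13 regions of 3 lines fell under this rule. Members and lists were chosen with earlier results of these data known. No test was run. Scripts used Python 3.11.15, pandas 2.3.3 and scipy 1.17.1. The marker PECAM1 was not matched. Some sequences are not reported here.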

Additional observations from a re-analysis of the deposited data

How the results depend on the processing

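With 1 library per line, no replicate was left out and no samples were paired. Of the alternative values, 103 stayed within 1.5 times the value reported and 25 did not, and the order of the lines changed with list length and with scale. With peaks of −log10 q of at least 10, promoter peaks remained at 6 members in COLO-205 (KLF7, KLF9, KLF11 and KLF15 dropped out) and at 7 in OVCAR-3 (KLF9 and KLF15 dropped out), and distal peaks fell to 24 in COLO-205, 23 in DU-145 and 23 in OVCAR-3. With 14001 peaks in every list, members with a promoter peak were 4 in COLO-205 and 3 in all 4 lines, distal peaks were 11, 9 and 5 in COLO-205, DU-145 and OVCAR-3, and members with a distal peak were 3 in each of these lines. Within 25 kb OVCAR-3 had 33 distal peaks, and within 100 kb there were 155, 85 and 94 in COLO-205, DU-145 and OVCAR-3. The line with the highest promoter value depended on the scale. COLO-205, DU-145 and OVCAR-3 were highest for 5, 4 and 1 members by the percentile of −log10 q in the list, for 1, 5 and 4 by bases covered, and for 4, 2 and 4 by pileup over the median of marked genes, a scale added after seeing the data. Depth limits what a missing peak says, since the lists hold no value below the caller's threshold, and the SKOV-3 list is the shortest.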
